A study of Homo sapiens with 12 samples.

Results

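The 30 genes described here make cholesterol, govern its supply or are fatty acid genes under the same regulators: they were taken by name from a list of cholesterol synthesis and SREBP (sterol regulatory element-binding protein) target genes, out of 58174 genes in the tables. All 30 were found, and all passed the filter on low counts. By role, 7 act in the mevalonate pathway, 11 in the sterol branch, 5 regulate SREBPs, 2 move sterols and 5 make fatty acids or glycerolipids. LN229 and U251 are established cell lines from human glioblastoma. Each line was reverse transfected with siRNA against XRN2 (siXRN2), with control siRNA (siNT) or without siRNA (mock), and RNA was taken after 72 hours. XRN2 is a nuclear 5′-to-3′ exoribonuclease known for degrading the RNA still attached to RNA polymerase II after cleavage at the poly(A) site. LN229 cells grew in DMEM with 5% serum and U251 cells in EMEM with 10% serum, so line, medium and serum cannot be told apart. Each of the 6 groups had 2 libraries, and nothing in the labels tells whether they came from separate cultures; a p-value here reflects the spread between these libraries alone, which may be technical.

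Cells make cholesterol from acetyl-CoA in a long series of steps: the mevalonate pathway yields farnesyl diphosphate, and the sterol branch turns squalene into lanosterol and then cholesterol. The SREBPs, encoded by SREBF1 and SREBF2, are made as membrane proteins of the endoplasmic reticulum. When sterols are scarce, SCAP carries them to the Golgi, where proteases release the part that enters the nucleus and raises transcription of these genes together with the factor NF-Y. When sterols are plentiful, INSIG1 and INSIG2 hold SCAP back. Serum brings lipoproteins and so cholesterol to cultured cells.

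Between 4846768 and 7469052 exon reads were counted per library, and 3 reads, the limit that a count of 0 allows, corresponded to 0.381 to 0.605 CPM (counts per library size after scaling by trimmed means of M-values), for counting error only. XRN2 itself had 33.5 and 25.6 CPM in LN229 siXRN2, against 202 to 243 CPM in the 4 control libraries, and 31.1 and 26.2 CPM in U251 siXRN2, against 134 to 144 CPM in controls. Its log2 fold change against siNT was -2.90 ± 0.17 in LN229 and -2.28 ± 0.17 in U251 (edgeR's quasi-likelihood test, Benjamini-Hochberg adjusted p = 3.75e-06 and 6.50e-05). Of 12 glial and glioma markers, GFAP reached 2351 to 6903 CPM in U251 but 1.05 to 4.31 CPM in LN229, whereas NES lay at 449.6 to 792 CPM in LN229 and 338 to 628 CPM in U251. VIM, SOX2, SOX9, SLC1A3 and CD44 were also higher in all U251 libraries. S100B went the other way, with 294 to 569 CPM in LN229 and 14.9 to 22.0 CPM in U251. So did OLIG2, with 6.74 to 9.68 CPM in LN229 and 0 to 0.161 CPM in U251, and FABP7, with 89.3 to 172 CPM and 65.1 to 88.3 CPM. The summed level of 18 markers of other cell types was 113 to 165 CPM in LN229 and 26.2 to 75.7 CPM in U251; of these, HBB was at 0 throughout. In bulk RNA, fewer cells of a type and less RNA per cell cannot be told apart. Both of the following libraries stood apart. Counts of calls in exon reads are given with and without them. The intron comparison and the counts of values above and below 0 are given with them only. In U251 mock replicate 2 all 16 genes of a list of the unfolded protein response exceeded the other 5 U251 libraries (HSPA5, the chaperone BiP, had 19522 CPM, against 1637 CPM in replicate 1). LN229 siNT replicate 1 had the lowest share of intron reads, 5.58% of its gene reads against 7.60% to 9.55% in the other libraries.

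The proximal promoters of 5 members are shown. SREBF2 was chosen as a regulator, MVD, FDPS and MSMO1 as members among those most above U251 in LN229, and ABCA1 as the member most below. Each holds a word searched for. Each run is the 250 bases before the start site in the RefSeq promoter table, on the gene's strand, 5′ to 3′, in GRCh38.p14. Capitals mark TCACNCCAC (the core of the sterol response element), CCAAT (the box bound by NF-Y, ATTGG on the other strand) and CACGTG (an E-box).
SREBF2, chr22:41832855-41833104, plus strand: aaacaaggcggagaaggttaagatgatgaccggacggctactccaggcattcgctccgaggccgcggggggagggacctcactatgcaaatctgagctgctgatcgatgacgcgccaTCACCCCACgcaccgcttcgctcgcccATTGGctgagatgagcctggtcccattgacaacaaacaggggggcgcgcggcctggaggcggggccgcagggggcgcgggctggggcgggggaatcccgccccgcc
MVD, chr16:88663092-88663341, minus strand: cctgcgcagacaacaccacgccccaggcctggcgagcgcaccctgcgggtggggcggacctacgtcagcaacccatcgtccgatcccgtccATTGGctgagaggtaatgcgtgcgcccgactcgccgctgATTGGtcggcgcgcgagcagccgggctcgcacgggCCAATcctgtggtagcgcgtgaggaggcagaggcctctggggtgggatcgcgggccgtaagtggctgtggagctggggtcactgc
FDPS, chr1:155308616-155308865, plus strand: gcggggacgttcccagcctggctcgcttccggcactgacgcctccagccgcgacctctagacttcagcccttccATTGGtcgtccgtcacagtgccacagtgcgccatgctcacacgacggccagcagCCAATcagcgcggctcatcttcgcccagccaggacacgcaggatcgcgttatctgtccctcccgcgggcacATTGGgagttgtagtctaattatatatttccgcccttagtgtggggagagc
MSMO1, chr4:165327419-165327668, plus strand: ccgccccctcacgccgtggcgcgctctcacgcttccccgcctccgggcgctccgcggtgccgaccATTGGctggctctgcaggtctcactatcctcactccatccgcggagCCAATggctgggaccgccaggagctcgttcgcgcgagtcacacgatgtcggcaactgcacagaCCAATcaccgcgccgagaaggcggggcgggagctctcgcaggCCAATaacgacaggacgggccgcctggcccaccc
ABCA1, chr9:104928156-104928405, minus strand: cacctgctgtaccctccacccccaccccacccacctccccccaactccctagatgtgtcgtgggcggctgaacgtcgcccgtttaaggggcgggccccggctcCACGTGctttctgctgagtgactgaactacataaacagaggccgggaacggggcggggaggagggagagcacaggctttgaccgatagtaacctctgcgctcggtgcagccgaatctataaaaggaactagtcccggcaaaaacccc
In windows reaching from 250 bases before to 50 bases after the start site, 26 of the 30 members had at least 1 entry, 37 windows in all. The sterol response core, searched on both strands, was in 1 of the 26 genes, SREBF2, as TCACCCCAC with its first base 133 bases before the start; 1.39% of all 27305 genes in the table hold it. CCAAT was in 19 of the 26 genes (73.1%), against 39.7% of all genes. MVK and NSDHL held it at 5 places each and MSMO1 at 4, and in IDI1 and NSDHL a CCAAT and an ATTGG shared letters. The E-box was in 5 of the 26 (19.2%), against 8.77% of all genes. The ABCA1 window held CACGTG, with its first base 147 bases before the start, and no CCAAT. Among members called lower in LN229 controls, ACLY, ACACA and TM7SF2 held CCAAT, and SCAP, INSIG2 and ABCA1 did not. Of the members called higher that had an entry, CYP51A1 and PMVK held none of the words, and the others held CCAAT. A link between these words and the line difference was not tested. A match is a run of letters, not a bound site.

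The members that differed between the lines were mostly higher in LN229. In the mock and siNT libraries, 19 of 30 members were higher in LN229 than in U251 and 6 were lower, by edgeR's quasi-likelihood test at an adjusted p of 0.05. Among all 14232 genes tested, 34.9% were called higher in LN229 and 32.1% lower, so most genes differed between these lines and the members' share of 6 lower is below that background while their share of 19 higher is above it. The median log2 fold change was 0.69 over the 30 members and 0.035 over all tested genes. All 6 LN229 libraries exceeded all 6 U251 libraries for 17 members, which 24.6% of all genes did, and all 6 were below for 5 members (TM7SF2, SCAP, INSIG2, ABCA1 and ACLY), which 24.9% of all genes were.

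**Figure D1:**
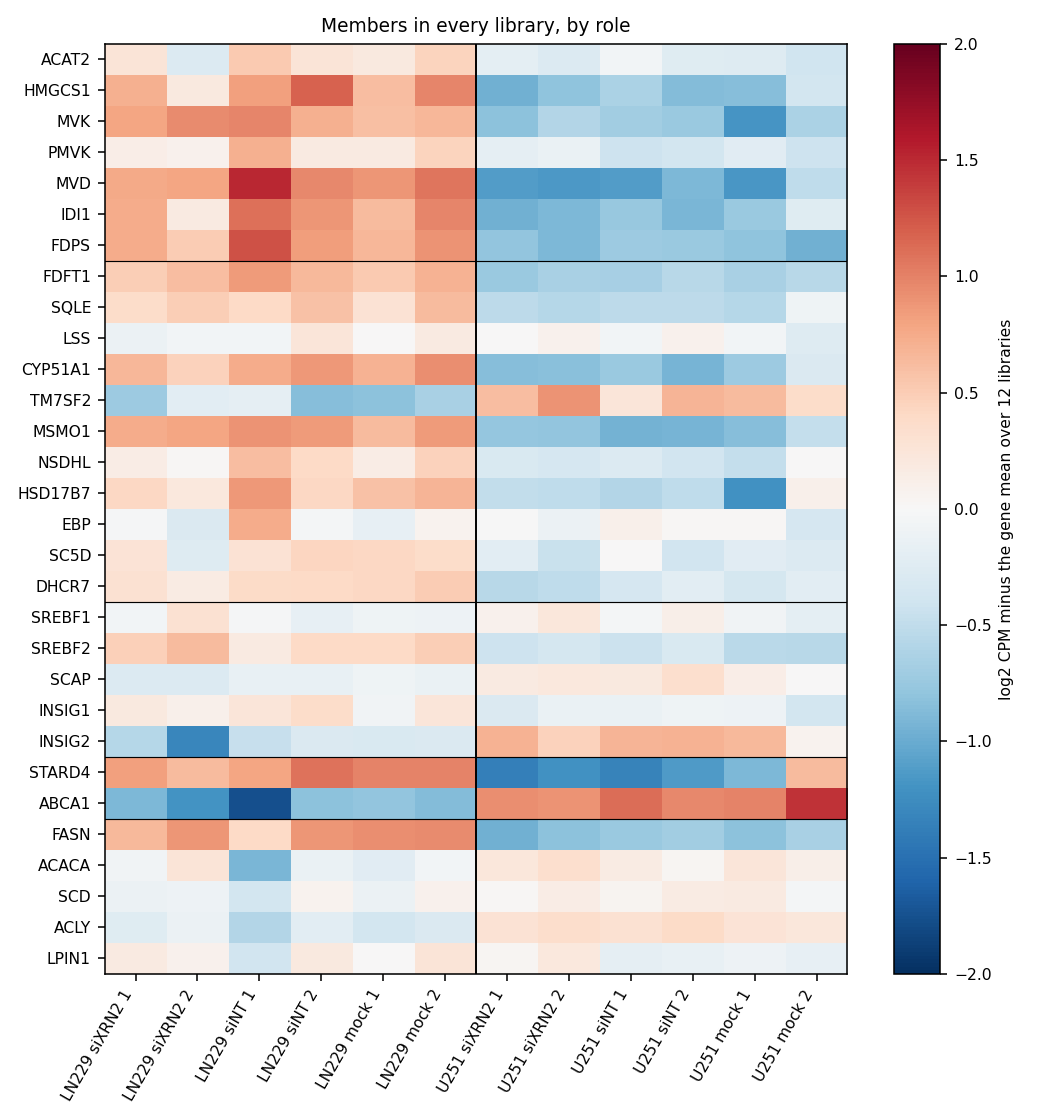
Each row is 1 of the 30 members, grouped by role, and each column is 1 library; colour is log2 CPM minus the gene's mean over the 12 libraries. The 7 mevalonate pathway genes in the top rows are above their mean in the LN229 libraries (ACAT2 in 5 of 6) and below it in all 6 U251 libraries, while ABCA1, INSIG2 and TM7SF2 run the other way.

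All 7 mevalonate pathway genes were higher in LN229. HMGCS1, which condenses acetoacetyl-CoA and acetyl-CoA to HMG-CoA, had 218 and 281 CPM in the siNT and 190.2 and 244 CPM in the mock libraries of LN229, against 79.8 and 68.3 CPM in siNT and 68.6 and 96.4 CPM in mock libraries of U251. Every LN229 control library was above every U251 one, and the log2 fold change was 1.57 ± 0.16 (SE; adjusted p = 1.20e-06, edgeR). ACAT2, the cytosolic thiolase that makes acetoacetyl-CoA, had 122 and 102 CPM in LN229 siNT and 96.8 and 116 CPM in LN229 mock, against 81.5 and 71.9 CPM in U251 siNT and 71.3 and 64.7 CPM in U251 mock. It differed less, by 0.60 ± 0.13, and shares its locus with TCP1 and SOD2 on the opposite strand, so unstranded reads may mix. MVK, mevalonate kinase, whose locus overlaps MMAB on the opposite strand, had 45.4 and 37.6 CPM in LN229 siNT and 34.9 and 36.7 CPM in LN229 mock, against 14.2 and 13.7 CPM in U251 siNT and 10.1 and 14.9 CPM in U251 mock. PMVK, which adds the next phosphate, had 54.5 and 37.9 CPM in LN229 siNT and 37.9 and 45.2 CPM in LN229 mock, against 25.00 and 25.7 CPM in U251 siNT and 28.5 and 25.02 CPM in U251 mock. The 2 kinases differed by 1.54 ± 0.14 and 0.75 ± 0.13 on the log2 scale, MVK at a low level in U251. MVD, the decarboxylase that makes isopentenyl diphosphate, had 112 and 76.1 CPM in LN229 siNT and 72.00 and 82.4 CPM in LN229 mock, against 17.99 and 20.96 CPM in U251 siNT and 17.6 and 27.6 CPM in U251 mock. Its log2 fold change of 2.02 ± 0.15 was the largest upward difference among the 30 members. IDI1, the isomerase of isopentenyl diphosphate, had 186 and 159.8 CPM in LN229 siNT and 135 and 169.7 CPM in LN229 mock, against 51.3 and 45.8 CPM in U251 siNT and 51.8 and 73.1 CPM in U251 mock. FDPS, farnesyl diphosphate synthase, had 489.6 and 359 CPM in LN229 siNT and 319.5 and 378 CPM in LN229 mock, against 122 and 120.5 CPM in U251 siNT and 115 and 104 CPM in U251 mock. Both stood well apart between the lines, with log2 fold changes of 1.56 ± 0.15 and 1.74 ± 0.12. MVD lies at chr16:88651935-88663161 on the minus strand and FDPS at chr1:155308748-155320666 on the plus strand (coordinates of the files, GRCh38).

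In the sterol branch, 8 of 11 genes were higher in LN229, 1 was lower and 2 were not called. FDFT1, squalene synthase, had 291 and 253 CPM in LN229 siNT and 232 and 261 CPM in LN229 mock, against 102 and 110.4 CPM in U251 siNT and 102 and 109.9 CPM in U251 mock. SQLE, the epoxidase that follows, had 144 and 165 CPM in LN229 siNT and 135 and 171 CPM in LN229 mock, against 76.3 and 76.4 CPM in U251 siNT and 74.1 and 103 CPM in U251 mock. Both squalene enzymes were wholly apart between the lines, by 1.29 ± 0.099 and 0.90 ± 0.12 on the log2 scale. LSS, which closes the ring to lanosterol, was not called, at 196 to 240.2 CPM in LN229 and 171 to 216 CPM in U251 controls (0.17 ± 0.10, adjusted p = 0.163, edgeR). CYP51A1, the lanosterol demethylase, had 256 and 277 CPM in LN229 siNT and 247 and 291 CPM in LN229 mock, against 90.9 and 79.97 CPM in U251 siNT and 91.7 and 125 CPM in U251 mock. MSMO1, which oxidises the C4 methyl groups, had 146 and 142 CPM in LN229 siNT and 122 and 142 CPM in LN229 mock, against 40.9 and 41.6 CPM in U251 siNT and 43.8 and 56.5 CPM in U251 mock. With 1.47 ± 0.12 and 1.60 ± 0.11, these enzymes of the demethylation steps differed most in this branch. NSDHL, the dehydrogenase of the same complex, had 57.1 and 49.3 CPM in LN229 siNT and 41.3 and 51.8 CPM in LN229 mock, against 30.9 and 28.7 CPM in U251 siNT and 26.8 and 37.6 CPM in U251 mock. HSD17B7, its ketoreductase, had 41.2 and 29.98 CPM in LN229 siNT and 33.9 and 36.2 CPM in LN229 mock, against 14.97 and 15.9 CPM in U251 siNT and 9.75 and 24.2 CPM in U251 mock. Their log2 fold changes were 0.68 ± 0.13 and 1.11 ± 0.21, and U251 mock replicate 2 was the highest U251 control library for both. SC5D, lathosterol desaturase, had 44.4 and 49.01 CPM in LN229 siNT and 48.8 and 47.1 CPM in LN229 mock, against 36.8 and 28.01 CPM in U251 siNT and 31.3 and 30.3 CPM in U251 mock. DHCR7, the last reductase of one route to cholesterol, had 210.2 and 212 CPM in LN229 siNT and 213 and 228 CPM in LN229 mock, against 127 and 138 CPM in U251 siNT and 125 and 139 CPM in U251 mock. Both were higher in LN229, by 0.58 ± 0.13 and 0.70 ± 0.092, without overlap among the control libraries. EBP, the isomerase before SC5D, was not called (0.22 ± 0.16, adjusted p = 0.222, edgeR): it had 50.6 to 94.4 CPM in LN229 and 44.6 to 60.5 CPM in U251 controls, with siNT replicate 1 the highest in LN229. TM7SF2, a sterol C14 reductase, was the exception, with 9.68 and 6.06 CPM in LN229 siNT and 6.24 and 6.98 CPM in LN229 mock, against 13.1 and 17.6 CPM in U251 siNT and 17.01 and 14.2 CPM in U251 mock. Its log2 fold change was -1.10 ± 0.19; it is the member with the fewest reads and overlaps VPS51 on the same strand, so its level is uncertain.

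**Figure D2:**
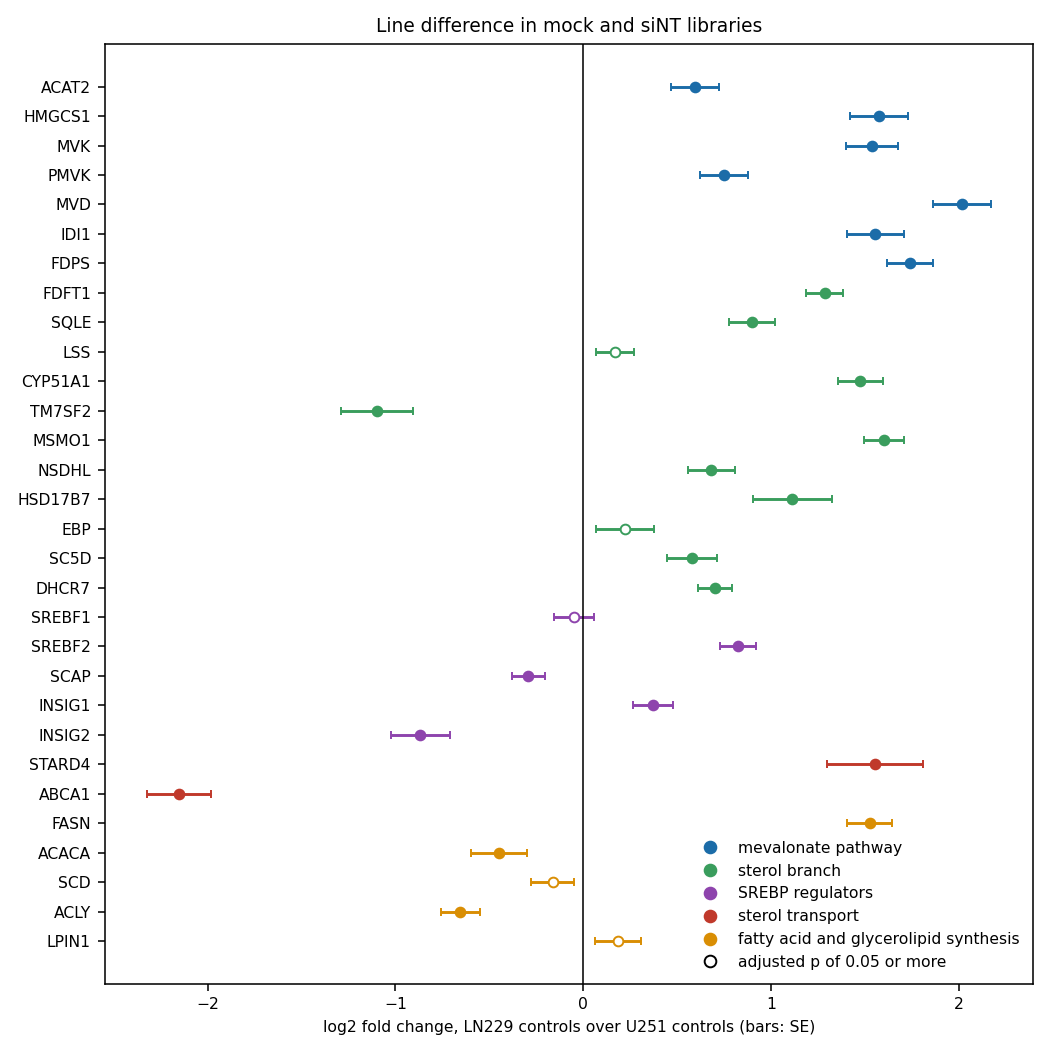
Each point is the log2 fold change of LN229 controls over U251 controls (4 libraries each) for 1 member, with SE bars; open points have an adjusted p of 0.05 or more. MVD at 2.02 is the highest and ABCA1 at -2.15 the lowest, and all 7 mevalonate pathway genes lie right of 0.

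The SREBP regulators split. SREBF2, which encodes SREBP-2, the SREBP that chiefly drives cholesterol synthesis genes, had 262 and 303 CPM in the siNT and 303 and 325 CPM in the mock libraries of LN229, against 171 and 188 CPM in siNT and 159 and 157 CPM in mock libraries of U251. The LN229 values lay wholly above those of U251 (0.82 ± 0.095, adjusted p = 5.35e-06, edgeR). SREBF1, which encodes SREBP-1, the main regulator of fatty acid genes, had 149.7 and 136 CPM in LN229 siNT and 143 and 141 CPM in LN229 mock, against 147 and 164 CPM in U251 siNT and 145 and 133 CPM in U251 mock. These ranges overlapped (-0.048 ± 0.11, adjusted p = 0.701, edgeR), with a 95% interval of -0.28 to 0.18; SREBF1 shares part of its locus with RAI1 on the opposite strand. SCAP, the escort of SREBPs, had 75.6 and 75.6 CPM in LN229 siNT and 78.7 and 76.01 CPM in LN229 mock, against 95.7 and 105 CPM in U251 siNT and 91.5 and 83.5 CPM in U251 mock. It was called lower in LN229 (-0.29 ± 0.089, adjusted p = 0.0104, edgeR), but with counts scaled by library size alone the value was -0.13 and not called (adjusted p = 0.226). INSIG1, itself a target of SREBPs, had 286 and 312 CPM in LN229 siNT and 230.1 and 286 CPM in LN229 mock, against 221 and 227 CPM in U251 siNT and 225 and 187 CPM in U251 mock. INSIG2, the retention protein that is not a strong SREBP target, had 24.8 and 27.8 CPM in LN229 siNT and 27.5 and 27.9 CPM in LN229 mock, against 54.6 and 54.95 CPM in U251 siNT and 53.3 and 35.7 CPM in U251 mock. The 2 INSIG genes went opposite ways: INSIG1 was higher in LN229 by 0.37 ± 0.11 and INSIG2 had a log2 fold change of -0.87 ± 0.16. The INSIG1 call was lost in the mock libraries alone (0.33, adjusted p = 0.0817, edgeR).

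The sterol transport genes went opposite ways. STARD4, a cytosolic sterol carrier and SREBP-2 target, had 139 and 169.9 CPM in LN229 siNT and 159.8 and 159 CPM in LN229 mock, against 31.8 and 36.5 CPM in U251 siNT and 43.00 and 124 CPM in U251 mock. All but 1 of the U251 libraries were far below LN229, the exception being mock replicate 2. The log2 fold change was 1.55 ± 0.26 with that library and 2.03 ± 0.13 without it; STARD4-AS1 overlaps on the opposite strand. ABCA1, the exporter of cholesterol to apolipoproteins and a known target of liver X receptors, had 19.4 and 37.2 CPM in LN229 siNT and 38.1 and 35.8 CPM in LN229 mock, against 142 and 127 CPM in U251 siNT and 131 and 178 CPM in U251 mock. It was the member most below U251 in LN229 (-2.15 ± 0.17, 4.44-fold lower, adjusted p = 1.48e-07, edgeR), with all LN229 libraries below all U251 libraries. It lies at chr9:104781002-104928237 on the minus strand.

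**Figure D3:**
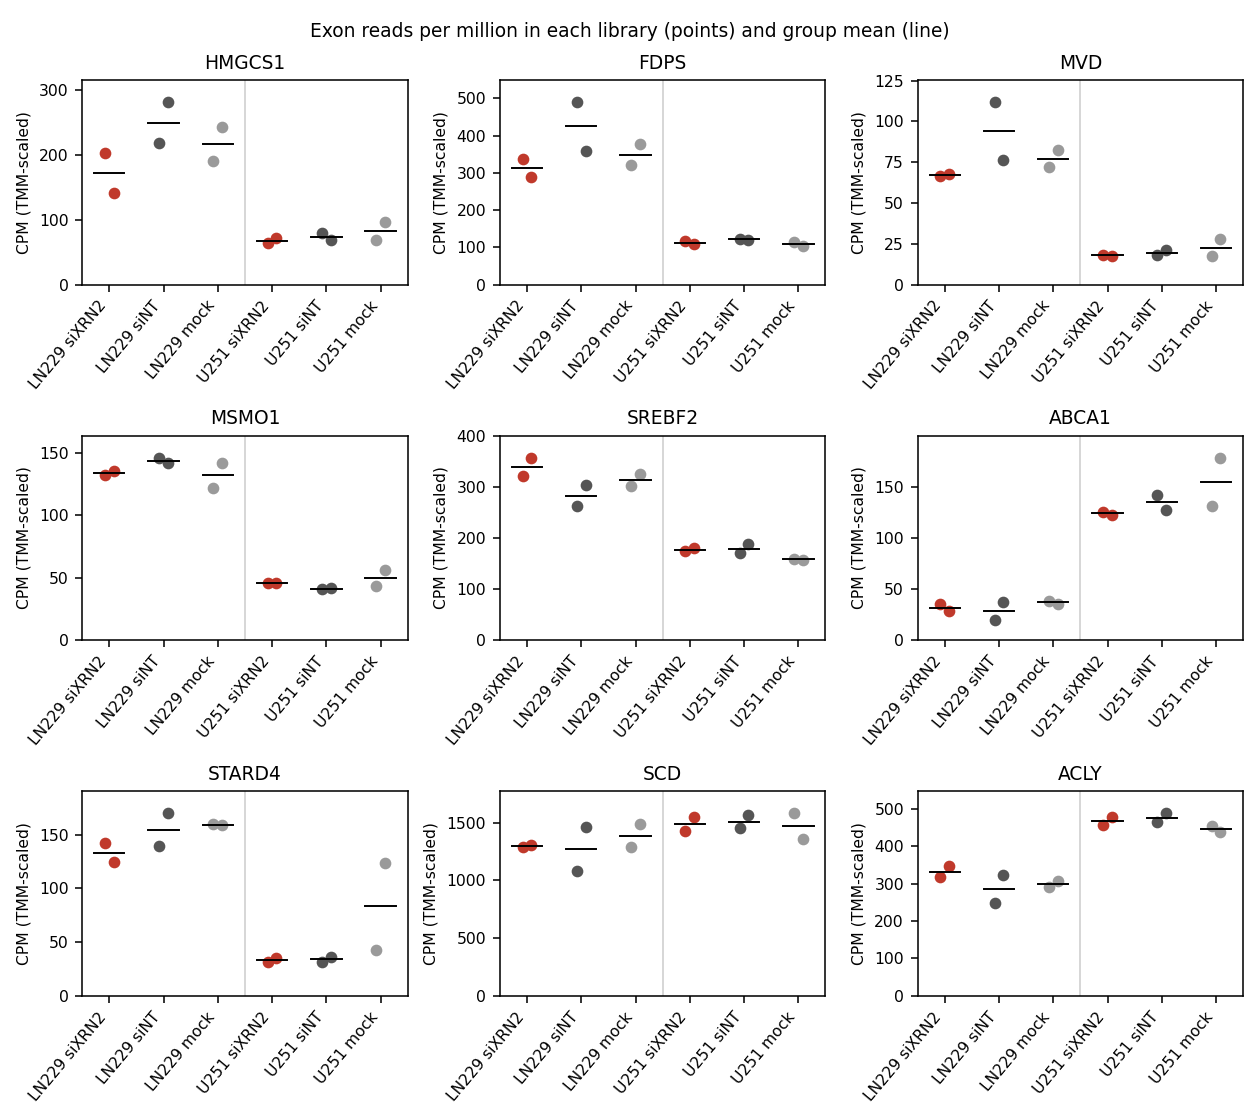
Exon reads as CPM of 9 members in each of the 12 libraries (points) with the mean of each group of 2 (line); siXRN2 libraries are red. HMGCS1, FDPS, MVD, MSMO1, SREBF2 and STARD4 are higher in LN229 and ABCA1 and ACLY lower, SCD overlaps, and the lone high U251 point of STARD4 is mock replicate 2 at 124 CPM.

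Fatty acid genes showed no common direction. FASN, the fatty acid synthase, had 977 and 1362 CPM in LN229 siNT and 1407 and 1425 CPM in LN229 mock, against 441 and 457 CPM in U251 siNT and 417 and 473 CPM in U251 mock. It was higher in LN229 (1.53 ± 0.12). ACLY, which makes cytosolic acetyl-CoA from citrate, had 249 and 324 CPM in LN229 siNT and 291 and 306 CPM in LN229 mock, against 465 and 488 CPM in U251 siNT and 453 and 437 CPM in U251 mock. ACACA, acetyl-CoA carboxylase, had 127 and 218 CPM in LN229 siNT and 203 and 230.1 CPM in LN229 mock, against 268 and 246 CPM in U251 siNT and 282 and 259.7 CPM in U251 mock. Both of these genes that feed FASN were lower in LN229, with log2 fold changes of -0.65 ± 0.10 for ACLY and -0.45 ± 0.15 for ACACA. The ACACA call was lost when counts were scaled by library size alone (-0.28, adjusted p = 0.121, edgeR) and in the mock libraries alone (-0.32, adjusted p = 0.209, edgeR). SCD, the stearoyl-CoA desaturase, and LPIN1, a phosphatidate phosphatase, were not called, at -0.16 ± 0.12 and 0.19 ± 0.12. SCD had 1081 to 1485 CPM in LN229 and 1357 to 1579.7 CPM in U251 controls, and LPIN1 82.1 to 128 and 95.2 to 99.8 CPM in the same order of lines.

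The deposited TPM values divide reads by exon length and then by the sum of such values in the library. By TPM, SCD was the most abundant member of both lines, with 1009.5 ± 199.7 TPM in LN229 and 1009.9 ± 57.8 TPM in U251 controls (SD over 4 libraries). Below it the order differed. In LN229, FASN (563 ± 125 TPM), FDPS (416 ± 47.3 TPM) and INSIG1 (308 ± 41.8 TPM) followed. The ranges of FASN and FDPS overlapped, and those of FDPS and INSIG1 did not. In U251, ACLY (322 ± 11.1 TPM) came next, before INSIG1 (214 ± 16.3 TPM) and FASN (174 ± 10.7 TPM), without overlap between neighbours in this order. The least abundant members were ABCA1 (11.8 ± 3.78 TPM) and TM7SF2 (8.49 ± 1.27 TPM) in LN229, and HSD17B7 (14.3 ± 5.48 TPM) and MVK (7.44 ± 1.24 TPM) in U251.

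Intron reads of the same libraries, which come mainly from RNA not yet spliced, were compared in the same way. Of the 28 members with enough intron reads, 15 were higher in LN229 and 2 were lower; over 12444 genes the shares were 26.8% and 23.7%. TM7SF2 and SC5D had too few. MVD had a log2 fold change of 2.55 ± 0.23 in intron reads beside 2.02 ± 0.15 in exon reads, FDPS 1.75 ± 0.16 beside 1.74 ± 0.12, SREBF2 0.88 ± 0.17 beside 0.82 ± 0.095 and MSMO1 2.20 ± 0.25 beside 1.60 ± 0.11. ABCA1 and INSIG2 were the members called lower in intron reads, at -1.97 ± 0.26 and -0.91 ± 0.23. DHCR7 differed by 1.25 ± 0.20 in intron and 0.70 ± 0.092 in exon reads. LSS and EBP were called higher in intron reads only, at 0.61 ± 0.18 (adjusted p = 0.00497, edgeR) and 0.68 ± 0.25 (adjusted p = 0.0295, edgeR). For ACLY, lower in LN229 by exon reads, the intron value was 0.095 ± 0.16 (adjusted p = 0.654, edgeR). NSDHL and INSIG1, higher by exon reads, had intron values of -0.12 ± 0.33 and -0.054 ± 0.19, with adjusted p = 0.782 and 0.834 (edgeR). The exon and intron values were not tested against each other, and intron depth was low for some: NSDHL had 5 to 23 intron reads in the LN229 and 9 to 16 in the U251 control libraries. RNA from overlapping genes also falls in introns.

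**Figure D4:**
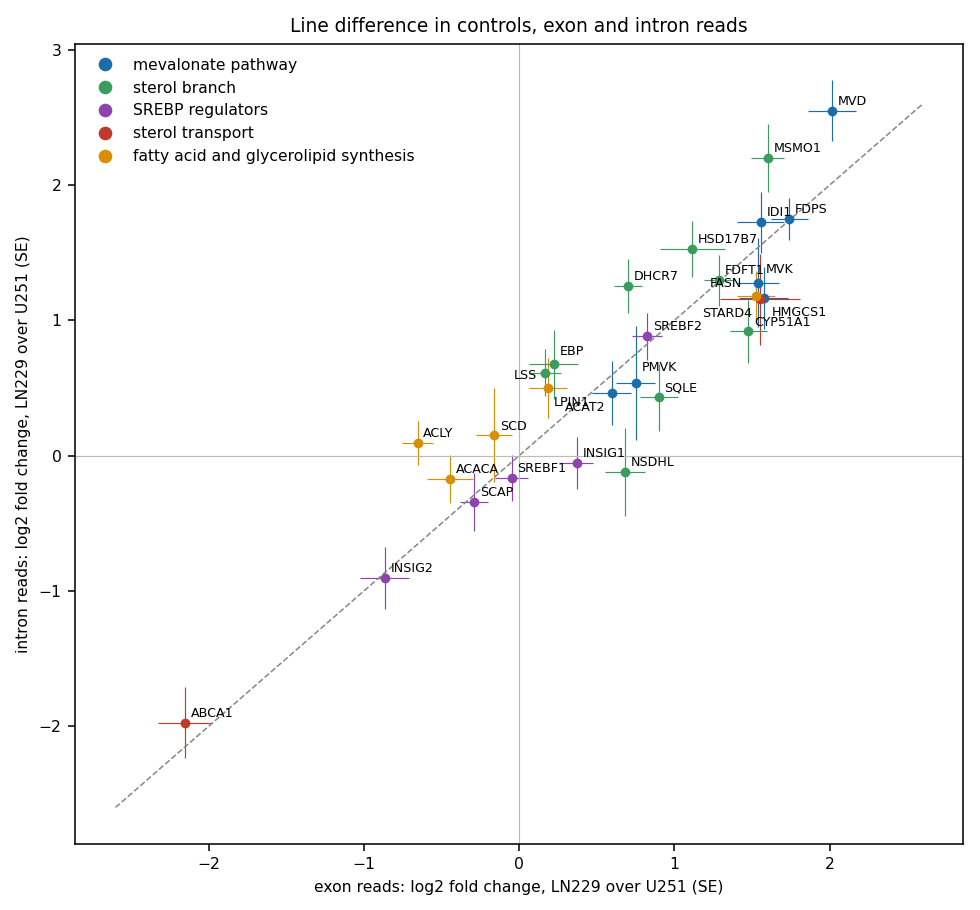
For 28 members, the log2 fold change of LN229 over U251 controls in exon reads (horizontal) and in intron reads (vertical), with SE bars and the line of equal values dashed. MVD, MSMO1 and FDPS lie at the upper right, ABCA1 at the lower left, and ACLY, INSIG1 and NSDHL have intron values near 0.

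The line difference was also read from the siXRN2 libraries. Their means did not enter the control comparison, but all 12 libraries shared 1 filter, scaling and estimate of the spread. The 2 comparisons are therefore not independent. In siXRN2 LN229 against siXRN2 U251, 14 members were higher and 5 lower, beside 26.8% and 27.4% of all genes. All 19 of these were among the 25 called in controls, with the same direction, so the shared genes are 19 of 19 and 19 of 25. Of all tested genes, 67.0% were called in controls and 54.3% in siXRN2 libraries. Their overlap was not counted, so the shared members have no background to stand against. MVD had 66.2 and 67.7 CPM in LN229 siXRN2 and 18.1 and 17.7 CPM in U251 siXRN2 (1.90 ± 0.22). HMGCS1 had 203 and 142 CPM and 63.9 and 71.1 CPM in the same lines (1.36 ± 0.22), and ABCA1 35.01 and 28.6 CPM and 126 and 122 CPM (-1.96 ± 0.24). The 6 members called in controls but not there were ACAT2, PMVK, NSDHL, SC5D, INSIG1 and ACACA, with log2 fold changes of 0.26, 0.26, 0.40, 0.36, 0.36 and -0.18.

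Depletion of XRN2 itself changed no member past the threshold. The number of members called was 0 of 30 in LN229 against siNT, where 3.16% of all genes were called, 0 against mock (1.29%), 0 in U251 against siNT (0.00703%) and 0 against mock (0.0492%), by edgeR's quasi-likelihood test. It was 0 for the mean of both lines (1.22%), for the difference between the lines (0% of all genes), and for siNT against mock in LN229 (0%) and in U251 (0%). At an unadjusted p under 0.05, 7 members (23.3%) passed in LN229 against siNT, beside 22.2% of all genes, and 0 in U251, beside 3.89%. Against mock, 1 (3.33%) passed in LN229, beside 16.5%, and 2 (6.67%) in U251, beside 10.7%. For the mean of both lines there were 4 (13.3%), beside 18.4%, and for the difference 1 (3.33%), beside 6.64%. For siNT against mock there were 0 in LN229, beside 4.55%, and 1 (3.33%) in U251, beside 4.79%. DESeq2 called 1 member, STARD4 in U251 against mock, and 0 in the other 7 of these comparisons; limma-voom called 0 in all 8. Over the members, the 95% intervals against siNT reached from -1.02 (EBP) to 1.02 (ACACA) in LN229 and from -0.90 (STARD4) to 0.81 (TM7SF2) in U251.

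The uncalled values in LN229 are given here by role, as descriptions. Against siNT, 6 of 7 mevalonate and 10 of 11 sterol branch genes had log2 fold changes below 0, and all 5 fatty acid genes above 0; the median was -0.17 over the members and -0.00078 over all genes. Against mock, 6 of 7 mevalonate genes (median -0.21) and 9 of 11 sterol branch genes (median -0.18) were below 0, and of the 5 fatty acid genes 3 were above and 2 below 0 (median 0.00074). For siNT against mock, which shares these control libraries, 7 of 7 mevalonate genes were above 0 (median 0.20), 7 of 11 sterol branch genes above 0 (median 0.016) and all 5 fatty acid genes below 0 (median -0.20). HMGCS1 had 203 and 142 CPM in LN229 siXRN2, against 218 and 281 CPM in siNT and 190.2 and 244 CPM in mock. Its values overlapped those of mock, and the log2 fold change was -0.53 ± 0.21 against siNT (adjusted p = 0.166, edgeR) and -0.33 ± 0.21 against mock. MVD had 66.2 and 67.7 CPM in LN229 siXRN2, against 112 and 76.1 CPM in siNT and 72.00 and 82.4 CPM in mock, both siXRN2 values below all 4 controls. Its log2 fold change was -0.49 ± 0.20 against siNT and -0.21 ± 0.20 against mock, without a call in either. SREBF2 had 322 and 358 CPM in LN229 siXRN2, against 262 and 303 CPM in siNT and 303 and 325 CPM in mock. SREBF1 had 147 and 188 CPM in LN229 siXRN2, against 149.7 and 136 CPM in siNT and 143 and 141 CPM in mock. For both SREBP genes each siXRN2 library was above at least 3 of the 4 controls, with 0.26 ± 0.13 and 0.23 ± 0.15 against siNT. INSIG1 had 277 and 259 CPM in LN229 siXRN2, against 286 and 312 CPM in siNT and 230.1 and 286 CPM in mock, within the range of its controls. ACACA had the smallest adjusted p of the members, with 228 and 284 CPM in LN229 siXRN2, against 127 and 218 CPM in siNT and 203 and 230.1 CPM in mock (0.57 ± 0.21 against siNT, adjusted p = 0.138, edgeR, and 0.24 ± 0.21 against mock). Its siNT libraries differed by more than siXRN2 and mock did, replicate 1 being the lowest. Over the 30 members, the log2 ratio of LN229 siNT replicate 1 to replicate 2 had a Spearman's rho of -0.68 with exon length, a description over genes of the same libraries, and its part in these values was not tested. In exon-exon junction reads the median over the members was -0.0034 against siNT, beside 0.021 over all genes, and -0.12 against mock, beside 0.027. In intron reads it was -0.096 against siNT, beside 0.021, and -0.10 against mock, beside 0.0087. In all exon reads without LN229 siNT replicate 1, the median over the members against siNT was -0.13. Without siNT replicate 2, the median was -0.14. That fit leaves replicate 1 as the lone siNT library, assumed to vary like the other groups. Its calls rose both among the members and over all genes.

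Both siXRN2 libraries of LN229 were below all 4 controls for 8 members, PMVK, MVD, CYP51A1, NSDHL, SC5D, DHCR7, SCAP and INSIG2, or 26.7% of members beside 16.9% of all genes, and above them for 0, beside 16% of all genes. INSIG2 had 22.9 and 13.9 CPM in LN229 siXRN2, against 24.8 and 27.8 CPM in siNT and 27.5 and 27.9 CPM in mock. CYP51A1 had 241 and 210.2 CPM in LN229 siXRN2, against 256 and 277 CPM in siNT and 247 and 291 CPM in mock. Replicate 2 of siXRN2 was the lower one in both. DHCR7 had 199 and 180.4 CPM in LN229 siXRN2, against 210.2 and 212 CPM in siNT and 213 and 228 CPM in mock. SC5D had 44.1 and 30.7 CPM in LN229 siXRN2, against 44.4 and 49.01 CPM in siNT and 48.8 and 47.1 CPM in mock. NSDHL had 41.2 and 37.9 CPM in LN229 siXRN2, against 57.1 and 49.3 CPM in siNT and 41.3 and 51.8 CPM in mock, where the nearest mock library was just above. PMVK had 36.6 and 35.2 CPM and SCAP 68.8 and 69.1 CPM in LN229 siXRN2, against the control values given above. Among the remaining members called between the lines, LN229 siXRN2 held 102 and 70.3 CPM of ACAT2, 39.6 and 44.2 of MVK, 144 and 97.5 of IDI1 and 337 and 288 of FDPS. It held 226 and 249 CPM of FDFT1, 141 and 154 of SQLE, 132 and 136 of MSMO1, 29.99 and 26.1 of HSD17B7 and 6.65 and 9.47 of TM7SF2. STARD4 was at 142 and 125 CPM, ABCA1 at 35.01 and 28.6, FASN at 1157 and 1364 and ACLY at 318 and 346. For none of these genes were both siXRN2 libraries above, or both below, all 4 controls.

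In U251 the median log2 fold change of the members was -0.041 against siNT and 0.019 against mock. Both siXRN2 libraries were above all 4 controls for 2 members, PMVK and LPIN1 (6.67% of members, 13.8% of all genes), and below them for 2, DHCR7 and ABCA1 (10.6% of all genes). PMVK had 29.6 and 30.6 CPM in U251 siXRN2, against 25.00 and 25.7 CPM in siNT and 28.5 and 25.02 CPM in mock. DHCR7 had 109 and 113 CPM in U251 siXRN2, against 127 and 138 CPM in siNT and 125 and 139 CPM in mock. It was below all controls in both lines, yet its log2 fold changes against siNT, -0.15 ± 0.13 in LN229 and -0.26 ± 0.13 in U251, were not called. ABCA1 had 126 and 122 CPM in U251 siXRN2, against 142 and 127 CPM in siNT and 131 and 178 CPM in mock. HMGCS1 had 63.9 and 71.1 CPM in U251 siXRN2, against 79.8 and 68.3 CPM in siNT and 68.6 and 96.4 CPM in mock, and SREBF2 had 174 and 181 CPM in U251 siXRN2, against 171 and 188 CPM in siNT and 159 and 157 CPM in mock. Neither stood apart from its controls. SREBF1 had 161 and 178 CPM in U251 siXRN2, against 147 and 164 CPM in siNT and 145 and 133 CPM in mock, and INSIG1 had 197 and 221 CPM in U251 siXRN2, against 221 and 227 CPM in siNT and 225 and 187 CPM in mock. Of the other members called between the lines, U251 siXRN2 held 73.8 and 70.6 CPM of ACAT2, 13.1 and 15.4 of MVK, 18.1 and 17.7 of MVD, 44.3 and 46.1 of IDI1 and 116 and 109 of FDPS. In the sterol branch it held 95.99 and 103 CPM of FDFT1, 75.9 and 74.1 of SQLE, 84.4 and 85.8 of CYP51A1, 16.8 and 20.4 of TM7SF2, 46.2 and 45.8 of MSMO1, 30.2 and 29.7 of NSDHL, 16.05 and 15.9 of HSD17B7 and 31.5 and 26.8 of SC5D. SCAP was at 94.8 and 96.6 CPM, INSIG2 at 54.98 and 47.1, STARD4 at 31.1 and 34.8, FASN at 378 and 420.2, ACACA at 279.6 and 301 and ACLY at 457 and 477. The widest value was that of STARD4 against mock, -1.35 ± 0.37 (adjusted p = 0.347, edgeR; 0.0159, DESeq2), which rested on mock replicate 2: without it the value was -0.39 ± 0.19.

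**Figure D5:**
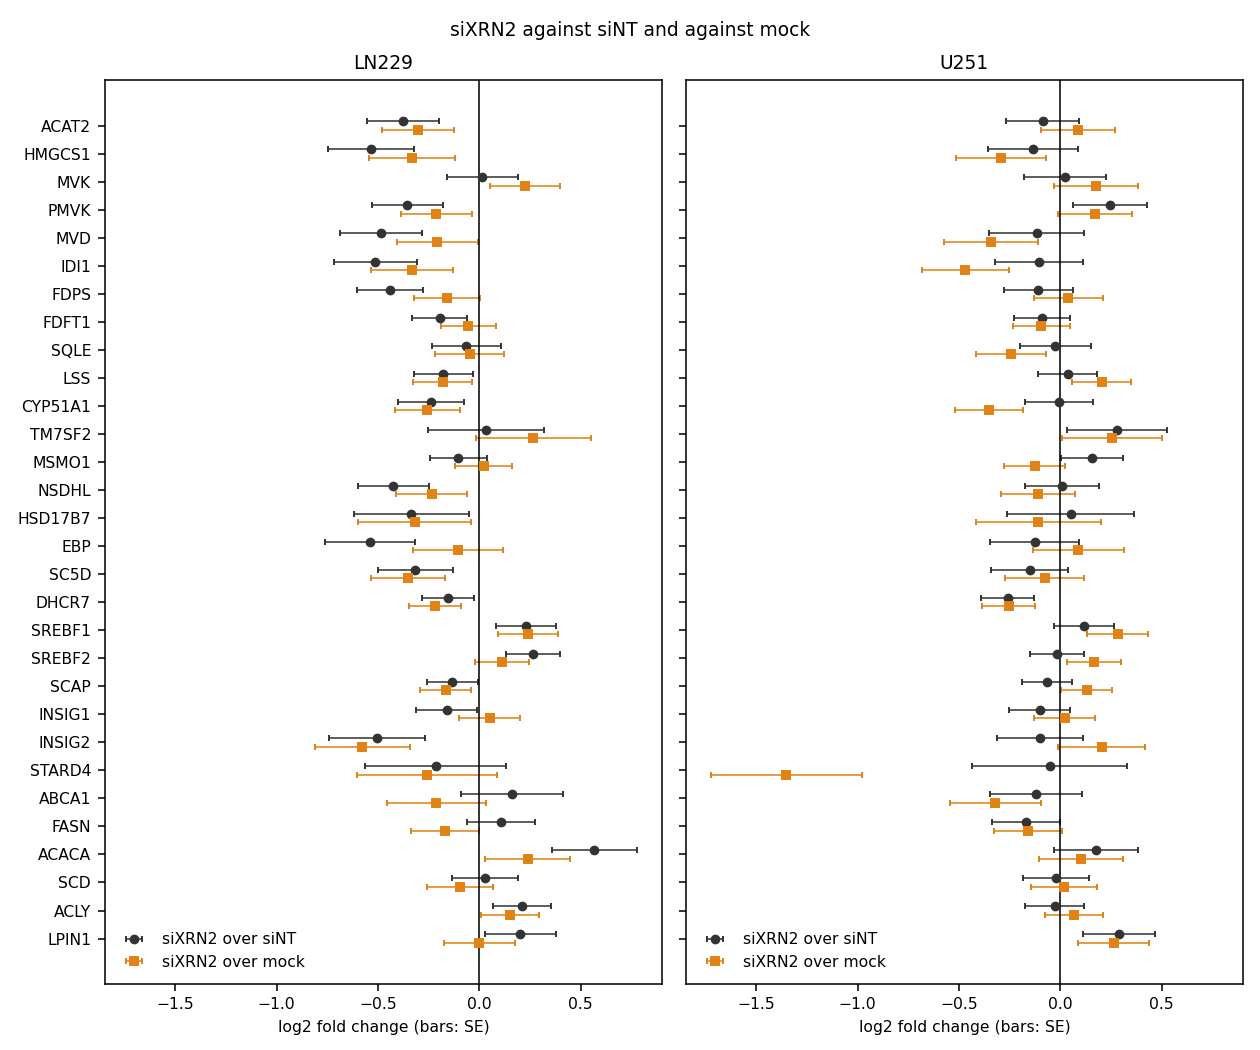
Log2 fold change of siXRN2 over siNT (circles) and over mock (squares) for each member in LN229 (left) and U251 (right), with SE bars. No member was called in either line; mevalonate pathway genes in LN229 lie mostly left of 0, and the far left square in U251 is STARD4 against mock at -1.35.

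Other genes of the pathway were read from 4 lists. Their counts stand against 34.9% of all tested genes higher and 32.1% lower in LN229 controls, with a median log2 fold change of 0.035. Among 15 genes of the isoprenoid branches, which use farnesyl diphosphate for purposes other than sterols, 5 were higher in LN229 controls (33.3%) and 3 lower (20%), with a median of 0.055. The leading ones were NUS1, a subunit of the dolichol-making transferase, with 52.7 ± 2.91 CPM in LN229 and 117 ± 29.9 CPM in U251 controls (SD, n = 4 each), and PDSS1, of coenzyme Q synthesis, with 9.72 ± 2.27 CPM in LN229 and 4.93 ± 0.758 CPM in U251. FNTB, the farnesyltransferase subunit, had 40.9 ± 4.76 CPM in LN229 and 24.3 ± 6.38 CPM in U251. Of 17 genes that supply, elongate or desaturate fatty acids, 7 were higher and 7 lower (41.2% each), with a median of -0.22. ACSS2, which makes acetyl-CoA from acetate, had 114 ± 8.86 CPM in LN229 and 29.5 ± 3.93 CPM in U251, and ACSL1, an acyl-CoA synthetase, had 101 ± 16.1 CPM in LN229 and 16.99 ± 2.43 CPM in U251. ME1, malic enzyme, had 24.5 to 36.04 CPM in LN229 and 0.161 to 0.637 CPM in U251, about the level of 3 reads. These 3 were higher in LN229. Among 17 genes of SREBP processing and sterol sensing, 4 were higher (23.5%) and 8 lower (47.1%), with a median of -0.22. PGRMC1, a haem-binding membrane protein, had 96.1 ± 11.4 CPM in LN229 and 243 ± 30.4 CPM in U251. RNF139, a ubiquitin ligase of the endoplasmic reticulum, had 29.7 ± 1.59 CPM in LN229 and 59.4 ± 6.82 CPM in U251. Both were lower in LN229. Of the Golgi proteases that cleave SREBPs, MBTPS1 was higher in LN229 by 0.31 ± 0.092 and MBTPS2 lower, at -0.91 ± 0.10; these 2 were named after their values were seen. Of 19 genes of sterol uptake, esterification and efflux, 9 were higher (47.4%) and 7 lower (36.8%), with a median of 0.39. SCARB1, a lipoprotein receptor, had 277 ± 23.3 CPM in LN229 and 42.3 ± 2.91 CPM in U251. VLDLR, another lipoprotein receptor, had 23.7 ± 3.59 CPM in LN229 and 414 ± 63.1 CPM in U251, lower in LN229. CYP27A1, the sterol 27-hydroxylase, had 0 to 0.807 CPM in LN229 and 36.8 to 39.9 CPM in U251. In the knockdown comparisons the only gene of these 4 lists that was called, in either line and against siNT or mock, was NPC2, a lysosomal sterol carrier, lower in LN229 against siNT (-0.67 ± 0.16, adjusted p = 0.0433, edgeR) and not called against mock (-0.26 ± 0.16, adjusted p = 0.460, edgeR).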

How the data were processed

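The deposited tables give, per the file headers, raw read counts for each gene (all exon, unique exon, exon-exon junction and intron reads) and TPM; the authors' RPKM was not used. GRCh37 and hg19 stand in the submitters' processing notes, yet 96.9% of 57836 identifiers lie where GENCODE 29 puts them, so coordinates are taken as GRCh38. Aligner and counter were not given in the sources used here. The TruSeq v2 kit keeps no strand.

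Total exon counts were kept by filterByExpr (minimum count 10, total 15; 14232 genes), scaled by trimmed mean of M-values and fitted in edgeR 4.0.16 (R 4.3.3) with 1 mean per group over 12 libraries and robust dispersions (6 residual degrees of freedom). Calls are at an adjusted p of 0.05 over all tested genes; SE is the log2 fold change over the square root of F. Intervals are 95%. Alternatives used DESeq2 1.42.0, limma 3.58.1 (voom), other scaling, filters, read classes and left-out libraries. All replicate pairs differed by more than sampling noise (chi-square per gene 1.71 to 25.4). The fit was tested on simulated data with known changes, 50 at each size. For siXRN2 against siNT it found 8 of 50 changes of 1.5-fold in LN229 and 5 of 50 in U251. At 2-fold it found 26 and 29, and at 4-fold 44 and 42. A count of 0 calls thus does not exclude changes of 1.5-fold to 2-fold. The same simulated fits made 8 false calls in LN229 and 11 in U251. An adjusted p also depends on how many genes change. The real U251 comparison with siNT called 1 of 14232 genes, fewer than the 50 changes planted at each size. These recoveries may therefore overstate what could be found in U251. Named genes were all members by role, members called in any comparison with a value per library, and up to 3 called genes of each other list with the smallest p. Members and lists were chosen with earlier results of these data known, and some genes of the marker and pathway lists are not reported here.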

Additional observations from a re-analysis of the deposited data

Results flagged for a closer look

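PMVK and MSMO1 had both siXRN2 libraries below both siNT libraries in LN229 and above both in U251, which is 6.67% of members beside 2.53% of all tested genes; the opposite pattern was in 0 members and 2.28% of all genes. PMVK had 36.6 and 35.2 CPM in LN229 siXRN2, against 54.5 and 37.9 CPM in siNT, and 29.6 and 30.6 CPM in U251 siXRN2, against 25.00 and 25.7 CPM in siNT. The difference of the log2 fold changes, LN229 minus U251, was -0.60 ± 0.25, which did not pass (edgeR's quasi-likelihood test, adjusted p = 0.732). MSMO1 had 132 and 136 CPM in LN229 siXRN2, against 146 and 142 CPM in siNT, and 46.2 and 45.8 CPM in U251 siXRN2, against 40.9 and 41.6 CPM in siNT, with a difference of -0.26 ± 0.21 (adjusted p = 0.794, edgeR). In LN229 the MSMO1 mock libraries, at 122 and 142 CPM, spanned the siXRN2 values.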

How the results depend on the processing

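The count of members that differed between the lines in controls, 25, was 24 to 27 with each library left out and 22 in mock libraries alone, 17 in intron reads and 19 in siXRN2 libraries; of 673 gene-by-alternative values of the 25 called members, 646 kept their call and direction, 24 lost the call and 3 changed sign, all in intron reads: NSDHL at -0.12, INSIG1 at -0.054 and ACLY at 0.095; the cause was not tested. Over all genes, the line difference called 9533 of 14232 in the main fit and 7820 of 14232 in mock libraries alone. It called 6278 of 12444 in intron reads and 7726 of 14232 in siXRN2 libraries. SCAP lost its call under 6 alternatives, ACACA under 6 and INSIG1 under 5. Without the filter on low counts, 1550 of 23491 genes were called in LN229 against siNT, 502 in U251 against mock and 247 in U251 siNT against mock. DESeq2 called 34 of 14232 genes in U251 against mock. With 1 library left out, the fits that gave knockdown or control calls among members also called more of all genes than the main fit. The knockdown counts of 0 became 3 in LN229 against siNT (HMGCS1, EBP and ACACA), 1 in U251 against mock and 1 in U251 siNT against mock without the filter on low counts, and 1 in U251 against mock by DESeq2. With each library left out, they ranged over 0 to 9 in LN229 against siNT, 0 to 1 in U251 against mock, 0 to 4 for the mean of both lines, 0 to 2 for the difference, 0 to 6 for LN229 siNT against mock and 0 to 1 for U251 siNT against mock, and stayed at 0 in LN229 against mock and in U251 against siNT; the non-zero counts came without LN229 siNT replicate 2 or, in U251, without mock replicate 1. With LN229 siNT replicate 1 and U251 mock replicate 2 both left out, an alternative chosen after seeing the data, the 8 knockdown and control counts were 0 and the line difference called 26. Scaling by library size alone split the calls over all genes into 277 higher and 197 lower (main scaling 172 higher and 278 lower) in LN229 against siNT, 126 higher and 92 lower (78 higher and 105 lower) against mock and 73 higher and 76 lower (63 higher and 110 lower) for the mean, and gave a median line difference of 0.20 over all genes and 0.86 over the members (main scaling 0.035 and 0.69). With the replicate number as a block 23 members differed between the lines, beside 8207 of 14232 genes, and 0 members in each of the other comparisons. Same-numbered libraries showed no shared deviation (correlations -0.038 to 0.066). Some of these correlations involve the libraries that stood apart, so a pairing by number was not excluded. Depth limits TM7SF2 and the intron reads most.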

Other observations

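In U251 mock replicate 2, the library with high unfolded protein response genes, 12 members exceeded the other 5 U251 libraries and 11 were below them (40.0% and 36.7% of members, beside 25.5% and 31.7% of all genes). STARD4 had 124 CPM in mock replicate 2 and 31.1 to 43.00 CPM in the other 5. HSD17B7 had 24.2 CPM in mock replicate 2 and 9.75 to 16.05 CPM in the other 5, and MVD had 27.6 CPM in mock replicate 2 and 17.6 to 20.96 CPM in the other 5. IDI1 had 73.1 CPM in mock replicate 2 and 44.3 to 51.8 CPM in the other 5, and CYP51A1 had 125 CPM in mock replicate 2 and 79.97 to 91.7 CPM in the other 5. INSIG2 was low, with 35.7 CPM in mock replicate 2 and 47.1 to 54.98 CPM in the other 5. FDPS, in the same pathway as IDI1, was not among the high ones, with 104 CPM in mock replicate 2 and 109 to 122 CPM in the other 5. SREBF2 itself had 157 CPM in mock replicate 2 and 159 to 188 CPM in the other 5. This is 1 library, so the values have no replicate check.

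In LN229 siNT replicate 1, 12 members exceeded the other 5 LN229 libraries and 7 were below them (40.0% and 23.3% of members, beside 30.2% and 29.6% of all genes). Its log2 ratio to siNT replicate 2 was 0.79 for EBP and 0.52 for PMVK (exon lengths 2409 and 1280 bases), and -0.94 for ABCA1 and -0.78 for ACACA (11350 and 13008 bases). Across the 30 members, Spearman's rho of this ratio with exon length was -0.68, a description over genes that share 2 libraries. Its part in the siNT comparisons of LN229 was not tested.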
